A study of Mus musculus with 8 samples.

Results

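The enzymes described here make NADPH or belong to the pentose phosphate pathway. They are G6pdx, Pgls, Pgd, Rpia, Rpe, Tkt, Taldo1, Me1, Idh1 and Idh2, and their members on the array are the probe sets whose single gene symbol in the platform annotation is one of these names. Of the 10 genes, 8 were found in this way with 13 probe sets, out of 17097 genes and 45037 probe sets in all. No probe set was matched to G6pdx or Rpe by this rule, and these genes were not analysed here. The tissue was whole ileum of male mice about 2 months old on a C57BL/6 background, fasted for 4 h before it was taken. The groups were 4 Slc51a knockout mice and 4 wild-type mice, with 1 Affymetrix 3' expression array for each. Slc51a encodes a subunit of the transporter that passes bile acids out of the enterocyte on its basolateral side. The sources used here do not give how the allele was made or whether littermates were compared.

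The oxidative branch of the pentose phosphate pathway oxidises glucose phosphate to a pentose phosphate and makes NADPH at its first and its last step. The non-oxidative branch interconverts pentose phosphates with the hexose and triose phosphates of glycolysis, and so supplies ribose for nucleotides or returns carbon to glycolysis. Malic enzyme and the NADP-linked isocitrate dehydrogenases make NADPH outside the pathway. Cells spend NADPH on glutathione and thioredoxin reduction, on aldehyde and ketone reduction, and on fatty acid and sterol synthesis.

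The Slc51a signal, as a check of the labels, was 4.67, 4.50, 4.68 and 4.56 in knockout ileum, against 11.36, 11.41, 11.29 and 11.37 in wild-type ileum. All levels are normalised log2 signals of a probe set, on which a step of 1 is a doubling, and the median over all probe sets was 4.58. The ileal marker Fabp6, a bile acid binding protein, averaged 13.18 ± 0.03 in knockout and 13.11 ± 0.02 in wild-type ileum (SD, n = 4 each), near the highest signal on any array, 13.23 to 13.38. Of 4 genes listed as ileal markers, 0 rose, 1 fell and 3 did not pass. The one that fell, Slc10a2, the apical bile acid transporter, averaged 10.97 ± 0.10 in knockout and 11.42 ± 0.11 in wild-type ileum (SD, n = 4 each). Its fall was 0.45 (SE 0.07, adjusted p = 0.000528). Fabp6 and Slc10a2 both handle bile acids, so they are no check of the tissue independent of the genotype. Arrays correlated at 0.996 to 0.997 among knockout, 0.997 to 0.998 among wild-type, and 0.988 to 0.992 between genotypes. The labels number the samples as biological replicates.

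The members were higher in the knockout as a group, by small amounts except for Me1 and Pgd. Of the 8 measured genes, 7 rose, 0 fell and 1 did not pass, at an adjusted p below 0.05 over all genes in limma, a linear model with moderated variances. Among all genes, 30.0% passed in either direction, 17.1% upward and 12.9% downward, and 25.2% rose among genes at or above the median signal, as all 8 members are. The 4 knockout samples lay above the 4 wild-type samples for 8 of 8 members, where 30.7% of all genes had groups apart, and 18.0% had them apart with the knockout higher. The median difference was 0.31 over the members and 0.01 over all genes. A rise of at least 1.5-fold was met by 2 members, Me1 and Pgd, against 2.05% of all genes. These counts describe the members and test nothing about them as a list, since the members were chosen with results of these data known.

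**Figure D1:**
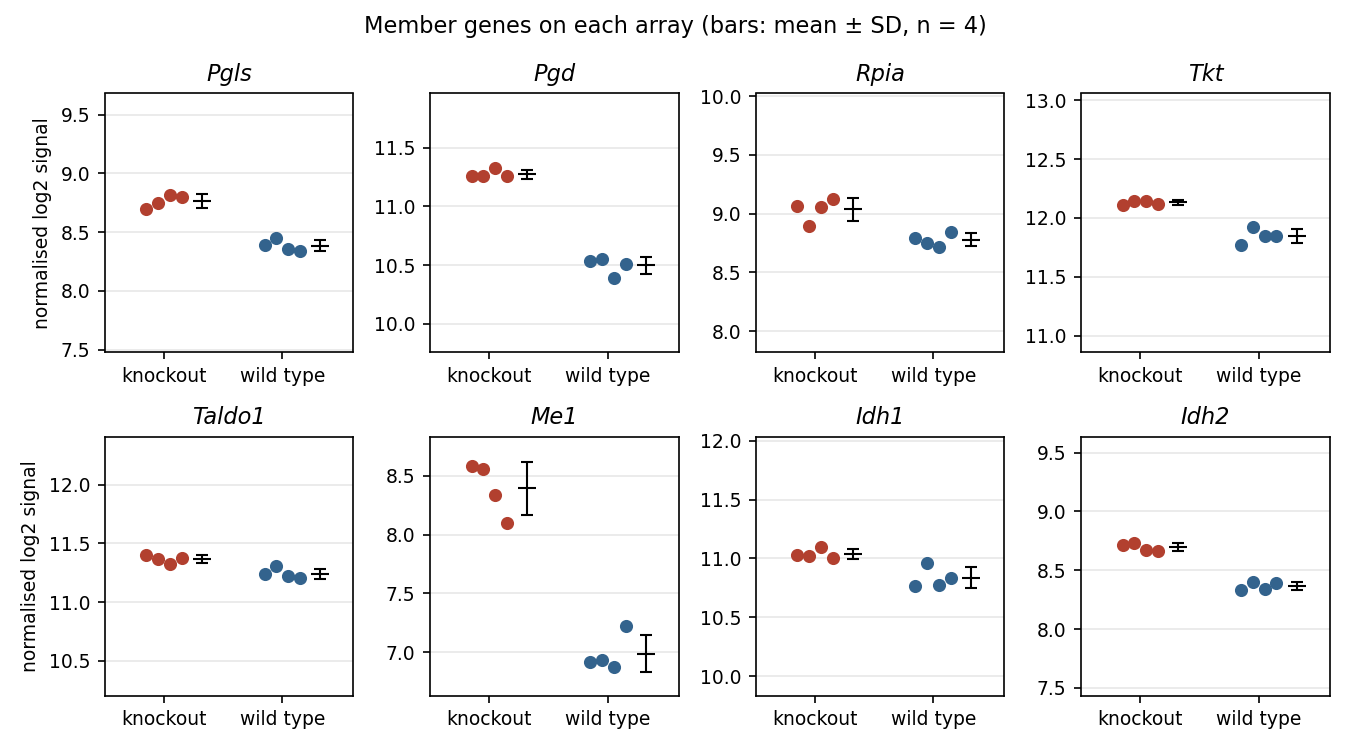
Normalised log2 signal of the 8 measured genes on each array, knockout left of wild type, with the mean and SD (n = 4 each) beside the points; every panel spans the same number of log2 units, and a level is not comparable between panels. The knockout points lie above the wild-type points in all 8 panels, with the widest gap in Me1 and narrow gaps of 0.02 in Taldo1, 0.04 in Idh1 and 0.05 in Rpia.

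The transcription start regions of the gene with the largest called rise in each role are shown. Each line gives the 120 bases before the outermost annotated start, 5′ to 3′ on the gene's strand, from RefSeq on build GRCm38.p6. Capitals mark the GC box GGGCGG, a motif bound by Sp1 family factors, on either strand.
Pgd, chr4:149166706-149166825, minus strand: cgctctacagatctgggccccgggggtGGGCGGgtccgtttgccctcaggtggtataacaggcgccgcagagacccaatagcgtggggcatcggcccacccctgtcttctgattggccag
Tkt, chr14:30549011-30549130, plus strand: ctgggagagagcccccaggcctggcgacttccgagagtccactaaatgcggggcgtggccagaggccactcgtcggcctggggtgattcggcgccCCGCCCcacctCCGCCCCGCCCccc
Me1, chr9:86695915-86696034, minus strand: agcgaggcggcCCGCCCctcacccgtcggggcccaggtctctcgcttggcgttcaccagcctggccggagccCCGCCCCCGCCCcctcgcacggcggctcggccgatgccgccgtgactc
The Pgd stretch holds 1 GC box, and the Tkt and Me1 stretches hold 3 each. Over the 250 bases before each start, all 8 measured genes had a GC box in at least 1 window, in 9 of their 11 windows. The same search found it in 32.7% of all 32851 windows and in 42.6% of the 21262 windows of protein-coding genes. These shares compare with the 9 of 11 windows and not with the count of genes. They were not limited to genes at or above the median signal, as the members are. The core of the antioxidant response element is TGACNNNGC on either strand, where N is any base. Over the same 250 bases it was in 0 of the 11 windows and in 10.2% of all windows. That says only that no complete match lies in the bases searched, and the element can lie outside them. Bases after the start, and matches that run across it, were not searched. Neither motif contains the other. Stretches holding the antioxidant response element core were planned, and the GC box was marked in their place after the data were seen. Whether a factor that binds either motif acts on these genes was not tested.

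In the oxidative branch, Pgd and Pgls both rose. Pgls encodes phosphogluconolactonase, which opens the lactone made by the first enzyme. Its signal was 8.69, 8.75, 8.82 and 8.80 in knockout ileum, against 8.39, 8.45, 8.36 and 8.34 in wild-type ileum. The lowest knockout sample stood above the highest wild-type sample. The difference, knockout minus wild type, was 0.38 (SE 0.05, 95% interval 0.27 to 0.49, adjusted p = 0.000159), a 1.30-fold rise.

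Pgd encodes phosphogluconate dehydrogenase, which makes the second NADPH of the branch and releases the pentose phosphate. Its brightest probe set read 11.26, 11.26, 11.33 and 11.25 in knockout ileum, against 10.54, 10.55, 10.39 and 10.51 in wild-type ileum. Knockout sample 3 was the highest and wild-type sample 3 the lowest, and the groups stood far apart relative to the spread within each. The difference was 0.78 (SE 0.05, interval 0.67 to 0.89, adjusted p = 2.57e-06), a 1.71-fold rise with rank 119 of 17097 genes by difference. The other Pgd probe sets gave 0.80 (SE 0.05) and 0.91 (SE 0.06), so all 3 rose, with adjusted p over all probe sets of 3.38e-06 and 4.41e-06 for those 2. Both of the brighter ones carry the identifier suffix that marks possible binding to other transcripts, and the one with 0.91 does not.

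In the non-oxidative branch, Tkt and Rpia rose and Taldo1 did not pass. Tkt encodes transketolase, which moves a two-carbon unit between sugar phosphates and links the pathway to glycolysis. Its signal was 12.11, 12.15, 12.15 and 12.12 in knockout ileum, against 11.77, 11.92, 11.85 and 11.85 in wild-type ileum. Wild-type sample 2 came nearest to the knockout samples. The difference was 0.29 (SE 0.05, interval 0.18 to 0.39, adjusted p = 0.000746). This probe set may also bind other transcripts by its identifier. The other Tkt probe set lay below the median signal, at 4.20 ± 0.17 in knockout and 4.05 ± 0.16 in wild-type ileum (SD, n = 4 each), with a difference of 0.15 (adjusted p = 0.328) that did not pass.

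Rpia encodes ribose phosphate isomerase, which makes ribose phosphate for nucleotide synthesis. It read 9.07, 8.90, 9.06 and 9.13 in knockout ileum, against 8.79, 8.75, 8.72 and 8.85 in wild-type ileum. Knockout sample 2 was the lowest of its group and stood 0.05 above the highest wild-type sample. The difference was 0.26 (SE 0.06, adjusted p = 0.00530). Without the 3 arrays with the lowest spiked-in hybridization controls (knockout 3, knockout 4 and wild type 2, with control means of 8.74 to 8.86, against 8.95 to 9.15 on the others) it was 0.20 and no longer passed (adjusted p = 0.109).

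Taldo1 encodes transaldolase, which moves a three-carbon unit and partners Tkt. It read 11.40, 11.37, 11.33 and 11.37 in knockout ileum, against 11.24, 11.30, 11.22 and 11.21 in wild-type ileum. The groups did not overlap, although knockout sample 3 and wild-type sample 2 were only 0.02 apart. The difference of 0.12 (SE 0.04, interval 0.03 to 0.22) missed the threshold (adjusted p = 0.0528), so Taldo1 is the member that did not pass. It passed in 8 of 20 alternatives, such as median centring (0.15, adjusted p = 0.0215), and was 0.04 with cyclic loess (adjusted p = 0.513).

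Outside the pathway, Me1 had the largest difference of the 8 genes. Me1 encodes cytosolic malic enzyme, which turns malate into pyruvate with NADPH, and in liver and fat is known as a source of NADPH for fatty acid synthesis. Its brighter probe set read 8.59, 8.56, 8.34 and 8.10 in knockout ileum, against 6.92, 6.93, 6.88 and 7.22 in wild-type ileum. Knockout sample 4 was the lowest of its group and wild-type sample 4 the highest of the other, and 0.88 lay between them. The difference was 1.41 (SE 0.11, interval 1.17 to 1.65, adjusted p = 8.85e-06), a 2.66-fold rise with rank 14 of 17097 genes. The second Me1 probe set read 7.92, 7.78, 7.76 and 7.51 in knockout ileum, against 6.29, 6.35, 6.55 and 6.86 in wild-type ileum. On it too, sample 4 of each genotype lay closest to the other group, and the difference was 1.23 (SE 0.12, adjusted p over all probe sets = 4.2e-05).

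Idh1 and Idh2 encode the NADP-linked isocitrate dehydrogenases of cytosol with peroxisomes, and of mitochondria. Idh1 read 11.03, 11.02, 11.10 and 11.01 in knockout ileum, against 10.77, 10.97, 10.78 and 10.84 in wild-type ileum. Wild-type sample 2 came within 0.04 of the lowest knockout sample. The difference was 0.20 (SE 0.05, interval 0.08 to 0.32, adjusted p = 0.0161), the smallest that passed. It did not pass with cyclic loess (0.12, adjusted p = 0.113), with the hybridization controls as a covariate (0.15, adjusted p = 0.0919) or without wild type replicate 3 (0.18, adjusted p = 0.0511). Its probe set may bind other transcripts by its identifier.

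Idh2 read 8.71, 8.73, 8.68 and 8.66 in knockout ileum, against 8.34, 8.40, 8.34 and 8.39 in wild-type ileum. The samples of each genotype were close together and the groups clearly apart. The difference was 0.33 (SE 0.04, interval 0.23 to 0.42, adjusted p = 0.000195). A second Idh2 probe set, near the median signal, read 4.45 ± 0.13 in knockout and 4.59 ± 0.08 in wild-type ileum (SD, n = 4 each), a difference of -0.14 (adjusted p = 0.211) that did not pass. Averaged over both probe sets, the Idh2 difference was 0.10 (adjusted p = 0.142).

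The change of Idh1 relative to Idh2 was compared within each array. The log2 difference Idh1 minus Idh2 was 2.31, 2.29, 2.42 and 2.34 in knockout ileum, against 2.43, 2.56, 2.43 and 2.45 in wild-type ileum. It was lower in the knockout by a small margin, with a mean change of -0.13 (2-sided exact permutation test, p = 0.0286, the smallest that 4 against 4 samples can give). The comparison was chosen with earlier results of these data known, so this p is no independent test of it. The probe sets lie at unlike levels, with means of 11.04 and 10.84 for Idh1 and 8.70 and 8.37 for Idh2 (knockout, wild type). Whether an unequal response of the probe sets has a part in the change was not tested. When the probe sets of each gene were averaged the sign turned, to 0.10 (exact p = 0.114). On leaving out 1 wild-type array the exact p was 0.0571 each time, and on leaving out 1 knockout array 0.0286 each time. With an array fewer, these are neighbouring values of an exact p that moves in coarse steps. The highest knockout value, 2.42, stayed below the lowest wild-type value, 2.43, whichever array was left out.

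**Figure D2:**
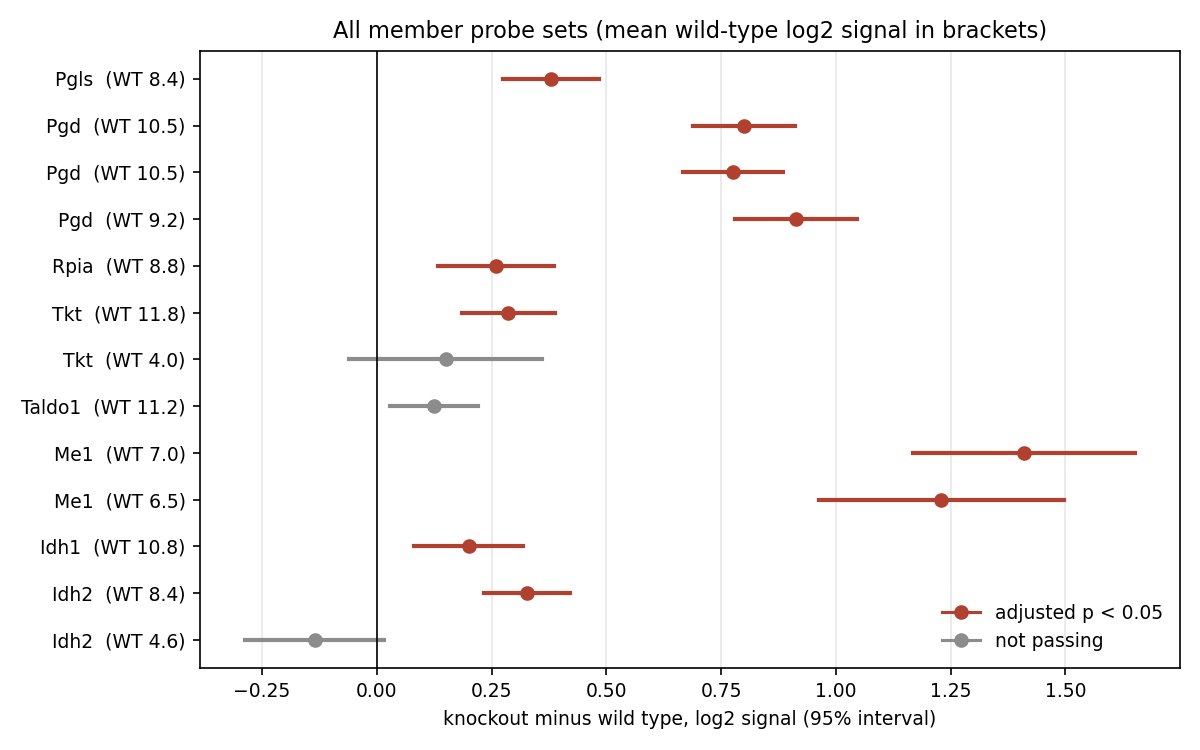
Difference in log2 signal, knockout minus wild type, with its 95% interval for each of the 13 member probe sets, from the limma fit of all probe sets; red passed at an adjusted p below 0.05. The 3 Pgd and 2 Me1 probe sets passed, whereas the second Tkt and Idh2 probe sets and Taldo1 did not.

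Over all 13 probe sets, 10 rose, 0 fell and 3 did not pass, with adjustment over all probe sets, among which 21.6% passed, 11.8% upward and 9.81% downward. The groups were apart for 11 of the 13, all higher in the knockout, where 23.8% of all probe sets had groups apart, and 13.3% had them apart with the knockout higher. For the probe set that represents each gene, the 95% interval of Me1 (1.17 to 1.65) did not meet that of Pgd (0.67 to 0.89), nor that of Pgd the one of Pgls (0.27 to 0.49). The interval of the second Me1 probe set began at 0.96 and overlapped that of the Pgd probe set with the largest difference (0.78 to 1.05). The intervals of neighbours further down, Pgls, Idh2, Tkt, Rpia, Idh1 and Taldo1, overlapped.

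Other genes of the same metabolism moved in both directions. Of 12 further pentose phosphate and phosphoribosyl genes, 4 rose, 1 fell and 7 did not pass (median difference 0.10), and 3 of them were below the median signal in both genotypes. Tigar, a phosphatase that lowers a glycolytic activator and favours the pathway, rose by 0.42 (SE 0.05), and the ribokinase Rbks by 0.38 (SE 0.05). Prpsap1, which associates with phosphoribosyl pyrophosphate synthetase, rose by 0.42 (SE 0.06), and the deoxyribose phosphate aldolase Dera by 0.29 (SE 0.05). The synthetase Prps2 itself averaged 7.98 ± 0.04 in knockout and 8.20 ± 0.07 in wild-type ileum (SD, n = 4 each), and fell by 0.22 (adjusted p = 0.00570). When all probe sets of a gene were averaged, Tigar (0.12, adjusted p = 0.155), Dera (0.12, adjusted p = 0.118) and Prps2 (-0.06, adjusted p = 0.319) did not pass, and Prps2 did not pass without the 3 arrays either (-0.19, adjusted p = 0.106).

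Of 10 measured genes on a list of other NADPH sources, folate enzymes and NAD kinases, 4 rose, 2 fell and 4 did not pass (median 0.04). Mthfd1 and Mthfd1l, of cytosolic and mitochondrial folate metabolism, rose by 0.55 (SE 0.06) and 0.51 (SE 0.07). Mthfd1l makes formate from formyltetrahydrofolate and makes no NADPH itself. Nadk and Nadk2, the cytosolic and mitochondrial kinases that make NADP from NAD, rose by 0.42 (SE 0.05) and 0.39 (SE 0.06). The list also holds the mitochondrial malic enzyme Me2, which uses mainly NAD rather than NADP, so its fall is not that of an NADPH source. In contrast to Me1, it averaged 8.35 ± 0.11 in knockout and 8.77 ± 0.07 in wild-type ileum (SD, n = 4 each). Me2 fell by 0.41 (SE 0.06, adjusted p = 0.000546). The formyltetrahydrofolate dehydrogenase Aldh1l1 fell by 0.26 (adjusted p = 0.0250), a call lost in 6 of 20 alternatives, such as without wild-type sample 1 (-0.22, adjusted p = 0.0714) or wild-type sample 2 (-0.25, adjusted p = 0.0598) and when its probe sets were averaged (-0.17, adjusted p = 0.0801).

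Of 9 counterparts that use NAD in place of NADP, or FAD in the case of Gpd2, 6 rose, 1 fell and 2 did not pass (median 0.23). The glycerol phosphate dehydrogenase Gpd1 rose by 0.64 (SE 0.06), the isocitrate dehydrogenase subunits Idh3b and Idh3a by 0.43 (SE 0.04) and 0.41 (SE 0.05), and the lactate dehydrogenase Ldha by 0.39 (SE 0.04). Ldhb fell by 0.19 (adjusted p = 0.0200), a call lost in 5 of 20 alternatives. It was lost on leaving out knockout sample 2 (-0.17, adjusted p = 0.0527), knockout sample 3 (-0.17, adjusted p = 0.0557) or wild-type sample 1 (-0.18, adjusted p = 0.0506). The 3 arrays left out together gave -0.14 (adjusted p = 0.218), and the covariate -0.16 (adjusted p = 0.0941).

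Of 13 measured genes on a list of enzymes that spend NADPH, 10 rose, 0 fell and 3 did not pass (median 0.41). The list also holds Srxn1, sulfiredoxin, which uses ATP and a thiol rather than NADPH and did not pass (-0.03). The reductases Akr1b8 and Cbr3, which reduce carbonyl compounds, rose by 2.58 (SE 0.14) and 1.32 (SE 0.08). The glutathione reductase Gsr rose by 1.09 (SE 0.05) and Cbr1, another carbonyl reductase, by 0.78 (SE 0.05). Of 11 enzymes around the hexose phosphates shared with glycolysis, 4 rose, 2 fell and 5 did not pass (median 0.08). Aldoa, Tpi1, Gapdh and Hk1 rose by 0.61, 0.47, 0.43 and 0.29. The hexokinase Hk2 averaged 8.62 ± 0.19 in knockout and 9.10 ± 0.23 in wild-type ileum, and the gluconeogenic phosphatase Fbp1 6.94 ± 0.19 in knockout and 7.39 ± 0.18 in wild-type ileum (SD, n = 4 each). Hk2 fell by 0.49 (adjusted p = 0.00853) and Fbp1 by 0.45 (adjusted p = 0.00798), and without the 3 arrays neither passed (adjusted p = 0.0882 for Hk2 and 0.0761 for Fbp1). Hk2 lost its call in 3 of 20 alternatives and Fbp1 in 2.

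**Figure D3:**
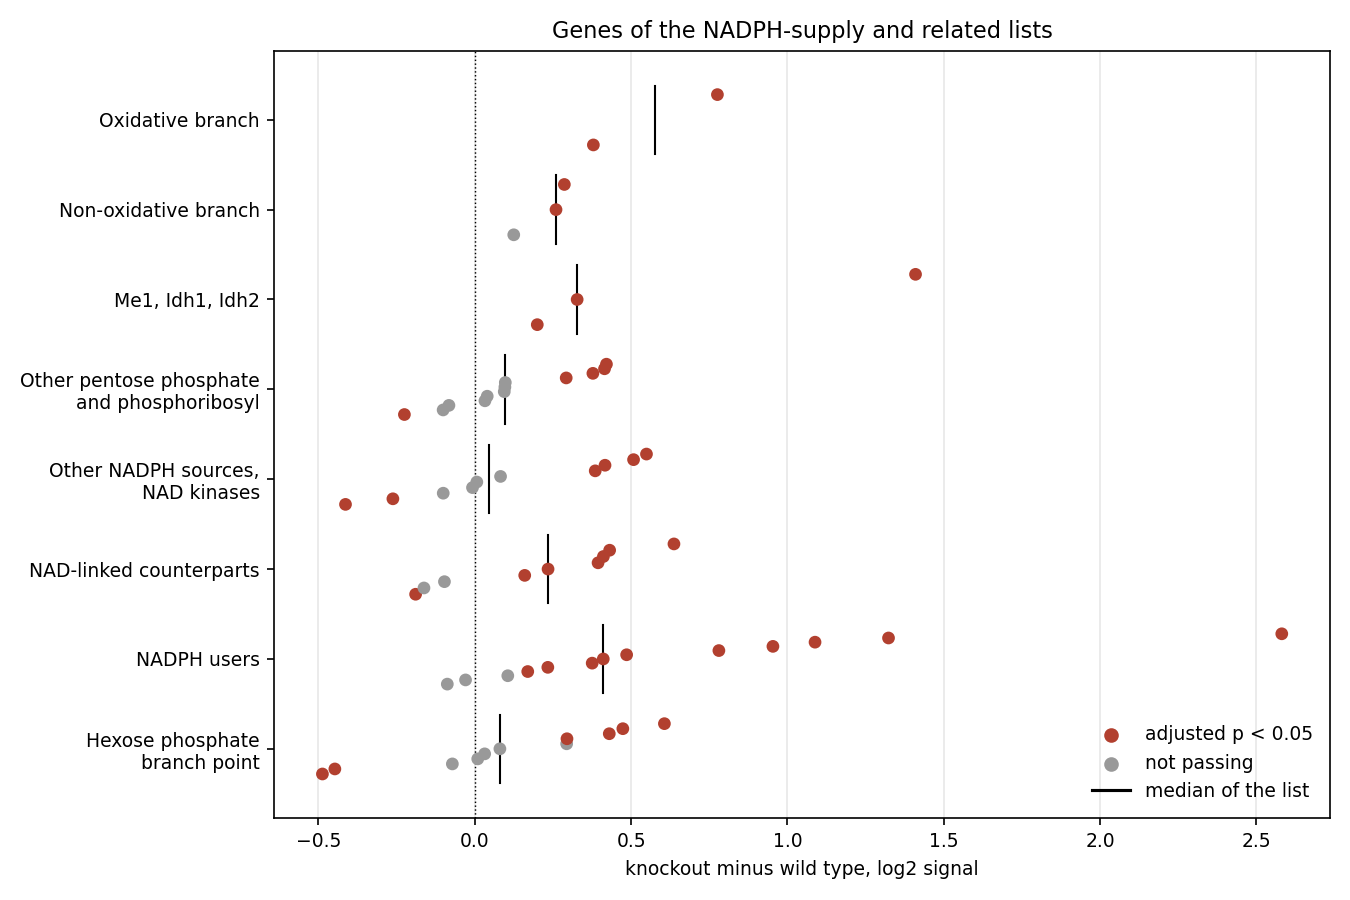
Difference in log2 signal, knockout minus wild type, for each measured gene of the 8 lists, 1 point a gene, red where it passed at an adjusted p below 0.05, with a black line at the list's median. The medians run from 0.04 in the other NADPH sources to 0.58 in the 2 genes of the oxidative branch, and Akr1b8 at 2.58 and Me1 at 1.41 are the points furthest to the right.

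Markers of several cell types moved in the same samples. The mean log2 signal over 9 cycling cell genes was 8.24 to 8.51 in knockout ileum, against 7.75 to 7.87 in wild-type ileum, and 8 of 9 rose. All 5 mature enterocyte genes fell, with list means of 10.21 to 10.40 in knockout and 11.03 to 11.22 in wild-type ileum. All 7 smooth muscle genes fell, with 8.88 to 9.16 in knockout and 9.69 to 10.16 in wild-type ileum. Of 7 T lymphocyte genes 6 fell, with 5.69 to 5.94 in knockout and 7.07 to 7.26 in wild-type ileum. General epithelial genes, 8 in number, gave 1 rise, 3 falls and 4 that did not pass, at 12.14 to 12.22 in knockout and 12.22 to 12.27 in wild-type ileum. Of 5 enteric nerve and glia genes 4 fell, with 4.46 to 4.59 in knockout and 4.84 to 4.98 in wild-type ileum. Of those 5, 4 were below the median signal in both genotypes. Falls were also found for 3 of 6 myeloid, 2 of 4 B lymphocyte and plasma cell, 2 of 4 endothelial and 1 of 4 tuft cell genes, with no rise in these lists. Among all genes 12.9% fell and 17.1% rose, so counts of 1 or 2 in such short lists show no shift of a cell type by themselves. Of 5 goblet cell genes 1 rose and 2 fell, and of 6 enteroendocrine genes 3 rose. Of 6 fibroblast genes 1 rose, and 0 of 3 Paneth cell and 0 of 3 erythroid genes passed. Below the median signal in both genotypes were 3 endothelial, 2 fibroblast, 2 erythroid, 1 myeloid and 1 tuft cell genes. The fibroblast gene that rose, Pdgfra, was among them, at 4.54 in knockout and 4.34 in wild-type ileum. The part of these shifts in the members' differences was not tested, and in bulk tissue fewer cells of a type and less RNA per cell cannot be told apart.

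Of 3 measured adipocyte genes 0 passed. The adipokine gene Adipoq read 6.28, 4.34, 5.20 and 4.04 in knockout ileum, against 5.89, 4.91, 4.92 and 5.40 in wild-type ileum, with overlapping groups. It was highest in knockout sample 1, where Me1 was highest too, at 8.59. In knockout sample 2 Me1 read 8.56 with Adipoq at 4.34. Among wild-type samples Adipoq was highest in sample 1 and Me1 in sample 4. Without knockout sample 1 the Me1 difference was 1.35 (adjusted p = 4.18e-05). The part of fat in the Me1 difference was not tested.

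**Figure D4:**
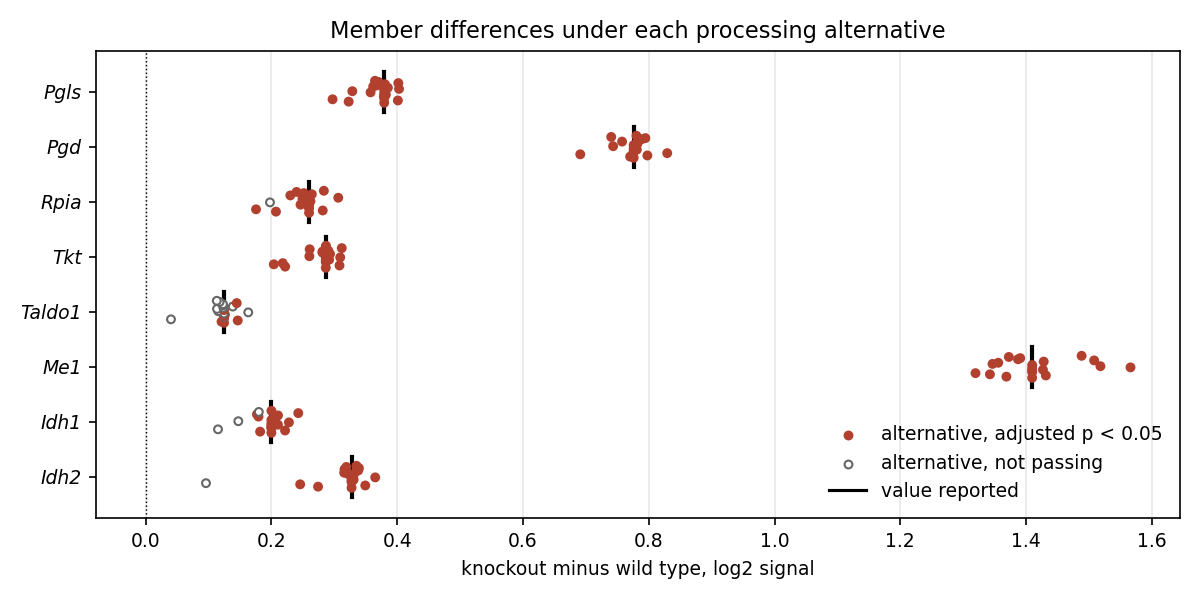
Difference in log2 signal, knockout minus wild type, of each measured gene under 20 processing alternatives, filled red where the adjusted p was below 0.05 and open where it was not, with a black line at the reported value. All points lie above 0, from 0.04 for Taldo1 to 1.57 for Me1, and the open points are in Taldo1, Idh1, Idh2 and Rpia.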

How the data were processed

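The authors deposited 1 log2 signal a probe set and array, made by RMA according to the submitters' processing notes, without its software or version. RMA compresses low signals, so small differences near the floor are understated, and no detection calls were used. RNA was extracted with Trizol and labelled for 3' arrays, per the labels' protocols. No source here gives array strips or scan dates, so a batch that runs with genotype was not tested, and the number of arrays limits precision.

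Of 45141 rows, 104 were controls. Symbols of 28898 probe sets with 1 symbol were taken from the platform annotation. Of these, 28689 were matched by Entrez identifier to RefSeq (GRCm38.p6) and took its symbol, whether or not it differed. Another 551 probe sets had several symbols and 15588 none listed. A gene was represented by its probe set with the highest mean over 8 arrays. Differences were fitted in R 4.3.3 by limma 3.58.1 (lmFit, eBayes). The 2-sided p-values were Benjamini-Hochberg adjusted across 17097 genes, or across 45037 probe sets, with a threshold of 0.05. The fit was also run on simulated data with independent noise and few changed genes. Those settings differ from these data, so that run says nothing about the calls here. Members were named whatever their values, and from each list up to 4 genes with the smallest adjusted p, or all in a direction with 5 or fewer. Members, lists, alternatives and the Idh1 minus Idh2 comparison were chosen with earlier results of these data known, and the GC box search after the data were seen. The alternatives tried were cyclic loess, median or quantile scaling, leaving out dim genes, averaged or all probe sets, another variance prior, array weights, an unmoderated test, the replicate block, hybridization controls as a covariate, other thresholds, and arrays left out singly or the 3 with the lowest controls together. Figures were drawn with matplotlib 3.10.9.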

Additional observations from a re-analysis of the deposited data

Results flagged for a closer look

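Of 26 groups of 4 arrays examined (13 member probe sets in each genotype), 2 held a sample far from the others by Dixon's test, which flags about 1 group in 20 by chance. On the brighter Me1 probe set, wild-type sample 4 read 7.22 against 6.88 to 6.93 in the other wild-type samples, and without it the difference was 1.49 (adjusted p = 1.88e-05). On the brightest Pgd probe set, knockout sample 3 read 11.33 against 11.25 to 11.26 in the other knockout samples, and without it the difference was 0.76 (adjusted p = 2.18e-05).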

How the results depend on the processing

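Over 20 alternatives for each of the 8 genes, 147 of 160 calls were the same, 5 were lost, 8 were gained (all Taldo1) and 0 turned direction. Pgls, Pgd, Tkt and Me1 kept their call throughout. Leaving out 1 array gave 1.35 to 1.51 for Me1 and 0.74 to 0.79 for Pgd. The number of members that rose was 6 to 8 under these alternatives and at thresholds of 0.01 and 0.1, and 2 with a fold of at least 1.5, when 825 genes were called in all; 0 fell under any of them. Without the 3 arrays 3493 genes were called, against 5134 with all arrays, from fewer samples. With the replicate number as a block, 7 members rose, 0 fell and 5190 genes were called, and it changed no member's call. Same-numbered samples had residual correlations of -0.05 to 0.22, over 0.1 in 3 of 4 pairs, and 5 of 8 samples correlated best with their own number. The numbers were not taken as pairs in the main fit because the labels state no pairing. Whether same-numbered samples share a batch or other structure was not tested. Idh1 minus Idh2 was 0.10 with the mean of probe sets, where the dim Idh2 probe set enters, and -0.15 to -0.10 on leaving out 1 array. Scaling moved the median of all genes to between -0.001 and 0.03. Probe sets near the median signal, such as the second ones of Tkt and Idh2, limit what can be seen there.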
